A study of Mus musculus with 4 samples.

Results

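Of the 48897 genes listed in the deposited table, the 10 described here are those of the classical major histocompatibility complex (MHC) class I pathway, chosen by symbol. They are the heavy chains H2-K1 and H2-D1, the light chain B2m, the peptide transport genes Tap1, Tap2 and Tapbp, the immunoproteasome subunits Psmb8, Psmb9 and Psmb10, and the transactivator Nlrc5. They were measured by RNA-Seq in whole retinas of wild-type C57BL/6 mice (C57BL/6J in the study's methods). On postnatal day 3 the left eyes received 1 μl with 0.6 nmol of an antagomir, a modified antisense oligonucleotide that binds and blocks the mature miR-124-3p, by injection into the vitreous (anti-miR-124 group), and the right eyes received a scrambled sequence (NC group). Retinas were taken on postnatal day 9, and each group had 2 libraries and drew on more than 1 litter, and by the study's methods the RNA came from pools of retinas. Each column names an eye and carries a number found in 1 column of each group, and libraries with the same number are set side by side as pair A (NC-A and anti-A) and pair B (NC-B and anti-B). Each mouse was injected in both eyes, with the antagomir on the left and the control on the right, so that the side of the body and the treatment cannot be told apart. The sources do not say that a number marks retinas of the same mice. Nothing in the labels says that the libraries of a group came from separate pools of animals, so that the p-values measure the spread between these libraries.

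Class I molecules display peptides of the cell's own proteins on its surface, where CD8 T cells read them. Peptides are cut by the proteasome, carried into the endoplasmic reticulum by the Tap1 and Tap2 transporter, and loaded with the help of Tapbp (tapasin) onto a heavy chain bound to B2m (beta-2 microglobulin). Interferons induce most of these genes together, including the subunits Psmb8, Psmb9 and Psmb10, which take the place of the constitutive subunits Psmb5, Psmb6 and Psmb7. Nlrc5 is a transcriptional activator of class I genes. In the healthy retina and brain, class I genes are known to be expressed at low levels.

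The libraries held 16317239 to 18726963 counts. The retinal identity of the samples was checked with 8 photoreceptor genes, whose summed level lay between 8466 and 9813 TPM (transcript levels, as counts divided by gene length and scaled to the same sum in each library). The NC library of pair A also held lens transcripts, as 21 lens genes took 6.71% of its TPM sum against at most 0.0260% in the other libraries. Levels are therefore given below as CPM (counts over the TMM-scaled library size), and as TPM where genes of different length are compared. In whole tissue, more cells of a type and more RNA per cell cannot be told apart. Deposited positions are given as they stand, and they fit the mouse build GRCm38.

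Control sequences of the class I genes are shown first, because H2-K1, H2-D1 and B2m are known to share sites for the factors that interferon and NF-kB signaling activate. RefSeq promoter sequences of GRCm38.p6 were at hand for 8 of the 10 genes, and the windows searched were the 250 bases before each annotated start, on both strands. Below, 5′ to 3′ along the gene, capitals mark matches to the interferon-stimulated response element (ISRE, GAAANNGAAA), to a variant with 1 base fewer (GAANNGAAA), or to the NF-kB consensus. The windows lie at chr17:34000348-34000597 on the minus strand (H2-K1), chr17:35262844-35263093 on the plus strand (H2-D1) and chr2:122147437-122147686 on the plus strand (B2m).

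H2-K1: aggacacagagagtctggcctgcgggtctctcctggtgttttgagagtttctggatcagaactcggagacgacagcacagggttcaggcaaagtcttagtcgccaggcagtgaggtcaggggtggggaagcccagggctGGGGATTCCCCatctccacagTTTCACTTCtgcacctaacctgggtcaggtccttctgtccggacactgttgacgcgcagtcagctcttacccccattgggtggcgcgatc

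H2-D1: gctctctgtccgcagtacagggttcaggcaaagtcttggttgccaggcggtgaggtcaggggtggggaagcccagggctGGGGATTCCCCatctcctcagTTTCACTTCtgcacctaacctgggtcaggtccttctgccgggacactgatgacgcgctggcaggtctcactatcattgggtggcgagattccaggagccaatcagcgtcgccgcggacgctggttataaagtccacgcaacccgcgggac

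B2m: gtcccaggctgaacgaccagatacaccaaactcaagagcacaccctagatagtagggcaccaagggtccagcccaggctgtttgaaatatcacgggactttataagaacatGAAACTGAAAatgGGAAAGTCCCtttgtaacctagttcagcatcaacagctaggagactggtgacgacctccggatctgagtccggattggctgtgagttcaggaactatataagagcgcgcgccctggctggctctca

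The heavy chain windows held the NF-kB match and the ISRE variant side by side, and their longest identical run was 47 bases. The NF-kB consensus was found in these 3 of the 8 windows with a sequence and in 3.90% of all 32851 windows. The ISRE was found only in B2m among the 8 genes and in 2.98% of all windows, and the variant only in both heavy chain genes and in 6.31% of all windows. The interferon-gamma activated sequence (TTCNNNGAA) was present only in Psmb8 among the 8 genes, and in 7.02% of all windows. A match is a run of letters and not a measured binding site, and no match was drawn on for any value below.

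Tap1 and Psmb9 lie head to head on chromosome 17, with 225 bases between the deposited start positions of both genes, so that a single stretch serves as the upstream region of a transporter gene and an immunoproteasome gene. It is shown along Tap1 (chr17:34187306-34187555, plus strand) with 2 short elements of class I promoters in capitals, the core of the X2 box (TGACG) and the Y box (CCAAT).

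Tap1 and Psmb9: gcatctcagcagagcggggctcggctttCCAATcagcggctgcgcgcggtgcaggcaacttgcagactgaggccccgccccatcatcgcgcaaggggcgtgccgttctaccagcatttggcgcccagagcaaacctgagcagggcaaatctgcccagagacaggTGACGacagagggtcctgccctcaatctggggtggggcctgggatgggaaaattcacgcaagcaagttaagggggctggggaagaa

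These short elements are common. The X2 core was in 5 of the 8 member genes with a sequence and in 17.8% of all windows, and the Y box was in 6 of the 8 and in 33.8% of all windows.

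All 10 genes had their highest CPM in the anti-B library, against 30.6% of the 17766 genes that passed edgeR's filter on low counts. The genes were chosen with earlier results of these data known, so that this share and those below are a description. In pair B, all 10 of 10 exceeded the NC-B level in the anti-B library, against 50.6% of all tested genes, by 1.59-fold for Tapbp up to 5.32-fold for H2-K1. In pair A, 6 of 10 were higher, against 48.2% of all tested genes, and the ratios ran from 0.431-fold for Nlrc5 to 2.18-fold for Psmb8. Over the 9 genes tested, the median log2 ratio was 0.15 in pair A and 1.59 in pair B, where the medians of all tested genes were -0.01 and 0.003. The summed TPM of the 10 genes was 175 in both NC libraries, 223 in the anti-A and 447 in the anti-B library. Lens transcripts took 6.71% of the TPM sum of NC-A, which lowers the TPM of all other genes there. The equal NC sums are therefore no measure of equal levels.

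**Figure D1:**
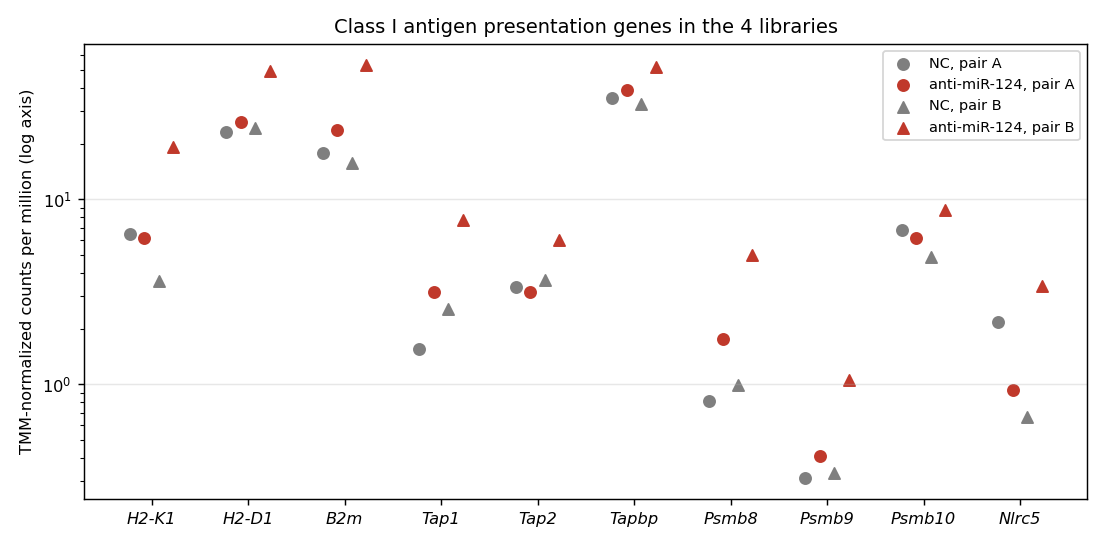
TMM-normalized CPM (log axis) of the 10 class I antigen presentation genes, with 1 point for each library. Grey points are NC and red points anti-miR-124 libraries, circles pair A and triangles pair B, and the red triangle is the highest point of each of the 10 genes.

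For the difference between the groups, edgeR's quasi-likelihood test was run over all genes, 2 libraries against 2. No gene had an adjusted p-value under 0.05 (0.0% of 17766), the smallest being 0.487, and all 9 tested members had an adjusted p of 0.989 (Benjamini-Hochberg, edgeR). At an unadjusted p-value under 0.05, 694 genes passed in all, and DESeq2's Wald test gave 34 genes with an adjusted p under 0.05, none of them among the 10. Of the 9 tested members, 6 had an unadjusted p under 0.05 and were higher (H2-K1, H2-D1, B2m, Tap1, Tapbp and Psmb8), against 2.23% of all tested genes, and 0 were lower. By DESeq2's Wald test this held for 4 of the 10 members, without H2-K1 and H2-D1, against 0.735% of 31982 genes. These include genes that edgeR's filter on low counts leaves out, so that this share is not like the 2.23%. With the replicate number as a block in edgeR it held for 5 of the 9, without H2-K1. The median log2 fold change of the 9 was 0.68, against 0.001 over all tested genes. Psmb9 was not tested, with 5 to 20 counts, while the other members had at least 12 counts in every library.

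The call depended on single libraries. Without the anti-A library, 6 of 10 members were higher with an adjusted p-value under 0.05 in edgeR's test, against 1.28% of all genes tested there. Without the anti-B library, 0 of 9 had one, and B2m alone had an unadjusted p under 0.05 (adjusted p = 0.941, edgeR), against 2.33% of genes that were higher with such a p. The median log2 fold change was then 0.21, and the values of the 6 genes named above were 0.31 for H2-K1, 0.15 for H2-D1, 0.50 for B2m, 0.62 for Tap1, 0.21 for Tapbp and 0.96 for Psmb8. By CPM, the values of 6 of the 10 members did not overlap between the groups (H2-D1, B2m, Tap1, Tapbp, Psmb8 and Psmb9), against 16.5% of all tested genes, and the same 6 were higher in both pairs, against 22.8%. Of the 9 tested members, 5 met both criteria. With the numbers crossed (anti-A over NC-B and anti-B over NC-A), 8 of the 9 were higher in both pairs, against 27.3% of all tested genes.

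Among the members, the light chain was the most abundant per length. B2m (chr2:122147687-122153082, plus strand) is the subunit that every class I molecule needs. Its CPM was 17.9 in NC-A, 23.6 in anti-A, 15.7 in NC-B and 53.5 in anti-B. Both anti-miR-124 libraries lay above both NC libraries, and the ratio in each pair exceeded its counting error, with log2 ratios of 0.40 (exact 95% interval 0.18 to 0.62) in pair A and 1.77 (1.58 to 1.97) in pair B. These intervals cover counting error only. The fitted log2 fold change was 1.21 (standard error 0.35, unadjusted p = 0.0122, adjusted p = 0.989, edgeR), and the adjusted p ran from 4.86e-22 to 1.00 over the alternatives.

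H2-D1 (chr17:35263094-35267497, plus strand) encodes a heavy chain. Its CPM was 23.2 in NC-A, 26.4 in anti-A, 24.4 in NC-B and 49.5 in anti-B. The 3 lower libraries lay close together, and the library that stood out was the anti-B library. The log2 ratio in pair A was 0.19 with an interval of -0.01 to 0.39, and in pair B it was 1.02 (0.86 to 1.19). The fitted log2 fold change was 0.68 (standard error 0.27, unadjusted p = 0.0415, adjusted p = 0.989, edgeR).

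H2-K1 (chr17:33996012-34000341, minus strand) encodes the other classical heavy chain of this strain. NC-A had a CPM of 6.52, anti-A of 6.21, NC-B of 3.60 and anti-B of 19.2. The groups overlapped, as the NC-A library was above the anti-A library. Its log2 ratio in pair A was -0.07 by CPM and 0.04 by TPM, so that its sign there depended on the scaling, while in pair B it was 2.41 (2.03 to 2.82). The NC libraries differed from each other as well, with a log2 ratio of -0.86 (-1.33 to -0.40) of pair B over pair A. The fitted log2 fold change was 1.34 (standard error 0.54, unadjusted p = 0.0439, adjusted p = 0.989, edgeR).

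Class I heavy chain genes are members of a family with stretches of shared sequence, and how reads from such stretches were counted is not given in the sources used here. Of the 50-base stretches of the longest coding GENCODE transcript, 14.3% for H2-D1 and 8.79% for H2-K1 also occurred in transcripts of other genes, against 0.0% for B2m. Both genes shared 109 such stretches with each other. Summed over both genes, the heavy chain TPM was 49.6 in NC-A, 59.0 in anti-A, 52.2 in NC-B and 124 in anti-B. The NC-A sum is lowered by the lens transcripts in that library. The TPM of B2m over that sum was 1.28 in NC-A, 1.53 in anti-A, 1.16 in NC-B and 1.67 in anti-B, so that it was higher in both anti-miR-124 libraries than in both NC libraries.

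The transporter genes differed in the size of their ratios. Tap1 (chr17:34187556-34197225, plus strand), a subunit of the peptide pump, had a CPM of 1.55 in NC-A, 3.16 in anti-A, 2.55 in NC-B and 7.69 in anti-B. The groups did not overlap, and it was 1 of 3 members whose counting interval lay above 0 in pair A, at a log2 ratio of 1.03 (0.32 to 1.77), together with B2m and Psmb8. In pair B the log2 ratio was 1.59 (1.11 to 2.11). Between the NC libraries the log2 ratio was 0.71 (-0.02 to 1.48) of pair B over pair A, so that the pair A ratio rests on the lower NC library. The fitted log2 fold change was 1.40 (standard error 0.48, unadjusted p = 0.0239, adjusted p = 0.989, edgeR).

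Tap2 (chr17:34204479-34216321, plus strand) encodes the partner subunit. Its CPM was 3.35 in NC-A, 3.16 in anti-A, 3.66 in NC-B and 6.05 in anti-B. Only the anti-B library stood apart, and the sign in pair A depended on the scaling, with a log2 ratio of -0.08 by CPM and 0.02 by TPM. The fitted log2 fold change was 0.40 (standard error 0.34, unadjusted p = 0.290, edgeR). Per length, Tap2 was at 2.56 times the level of Tap1 in NC-A and 1.70 times in NC-B, against 1.18 times in anti-A and 0.931 times in anti-B.

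Tapbp (chr17:33919478-33929290, plus strand), the chaperone that holds the heavy chain at the transporter, had a CPM of 35.4 in NC-A, 39.2 in anti-A, 32.8 in NC-B and 52.2 in anti-B. Its groups did not overlap, but the counting interval of pair A reached below 0, at a log2 ratio of 0.15 (-0.01 to 0.31), against 0.67 (0.52 to 0.82) in pair B. The fitted log2 fold change was 0.43 (standard error 0.14, unadjusted p = 0.0210, adjusted p = 0.989, edgeR). A gene model on the other strand, Gm19412, overlapped Tapbp with 19 to 32 counts.

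The immunoproteasome subunits differed in level, with a mean of 1.63 TPM for Psmb9, 5.73 for Psmb8 and 13.8 for Psmb10. Psmb8 (chr17:34198195-34201454, plus strand), the subunit that takes the place of Psmb5, had 13 counts in NC-A, 30 in anti-A, 18 in NC-B and 94 in anti-B. In CPM these were 0.807, 1.76, 0.997 and 4.99, without overlap between the groups. Its log2 ratio was 1.12 (0.14 to 2.18) in pair A and 2.32 (1.58 to 3.14) in pair B. The fitted log2 fold change was 1.90 (standard error 0.55, unadjusted p = 0.0118, adjusted p = 0.989, edgeR).

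Psmb9 (chr17:34182030-34187330, minus strand), the counterpart of Psmb6, had 5 counts in NC-A, 7 in anti-A, 6 in NC-B and 20 in anti-B. The difference in pair A was not detectable at this depth, as its log2 ratio of 0.40 had an interval of -1.47 to 2.40, and in pair B it was 1.67 (0.31 to 3.28).

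Psmb10 (chr8:105935728-105938454, minus strand), the counterpart of Psmb7, had a CPM of 6.83 in NC-A, 6.15 in anti-A, 4.87 in NC-B and 8.75 in anti-B. The groups overlapped, the ratios had opposite signs in the pairs (log2 -0.15 and 0.84), and the NC libraries differed by a log2 ratio of -0.49 (-0.91 to -0.07). The fitted log2 fold change was 0.35 (standard error 0.27, unadjusted p = 0.228, edgeR).

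**Figure D2:**
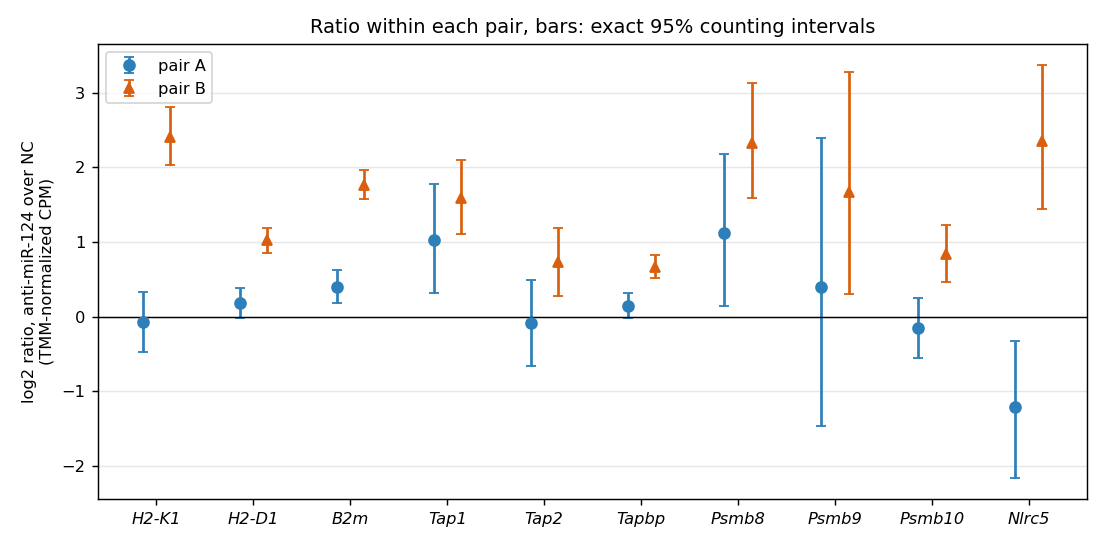
The log2 ratio of TMM-normalized CPM, anti-miR-124 over NC, for each of the 10 genes in pair A (blue circles) and pair B (orange triangles), with exact 95% intervals that cover counting error only. All 10 intervals of pair B lie above 0, against 3 of pair A, and those of both pairs are apart for 6 genes. The shares of all tested genes with such intervals were not computed, so that these counts are a description.

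Nlrc5 (chr8:94434354-94527272, plus strand), the activator of class I genes, had ratios of opposite sign in the pairs. NC-A had 35 counts, anti-A 16, NC-B 12 and anti-B 64, which gave a log2 ratio of -1.21 (-2.17 to -0.32) in pair A and of 2.35 (1.45 to 3.38) in pair B. It was the only member whose interval in pair A lay below 0, and its NC libraries differed by a log2 ratio of -1.71 (-2.79 to -0.73). The fitted log2 fold change was 0.64 (standard error 0.73, unadjusted p = 0.410, edgeR).

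In order of mean TPM over the libraries, the members were B2m (105), H2-D1 (57.9), Tapbp (47.1), Psmb10 (13.8), H2-K1 (13.3), Psmb8 (5.73), Tap2 (5.29), Tap1 (4.16), Psmb9 (1.63) and Nlrc5 (0.732). Several neighbours in this order changed places between libraries, so that the order does not hold in every library. H2-K1 was below Psmb10 in 3 libraries and above it in the anti-B library, at 29.2 against 18.7 TPM. Tap2 was above Tap1 in 3 libraries and below it in that same library.

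A ratio of genes within a library does not depend on how libraries are scaled, and the immunoproteasome subunits were therefore set against the constitutive subunits that they replace. Psmb5, Psmb6 and Psmb7 had fitted log2 fold changes of 0.04, 0.03 and -0.03 (standard errors 0.08, 0.08 and 0.08). The TPM of Psmb8 was 0.923% of that of Psmb5 in NC-A, 2.13% in anti-A, 1.28% in NC-B and 5.75% in anti-B. Psmb9 was at 0.404% of Psmb6 in NC-A, 0.504% in anti-A, 0.441% in NC-B and 1.43% in anti-B. Psmb10 was at 5.05% of Psmb7 in NC-A, 4.30% in anti-A, 3.48% in NC-B and 6.86% in anti-B. The first 2 ratios did not overlap between the groups and the third did. With 2 libraries against 2, an exact two-sided permutation test cannot go below p = 0.333, which is the value for Psmb8 and Psmb9, and it was p = 0.667 (exact) for Psmb10. Summed, the immunoproteasome subunits made up 2.26% of the TPM of the 6 subunits in NC-A, 2.39% in anti-A, 1.86% in NC-B and 4.59% in anti-B.

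**Figure D3:**
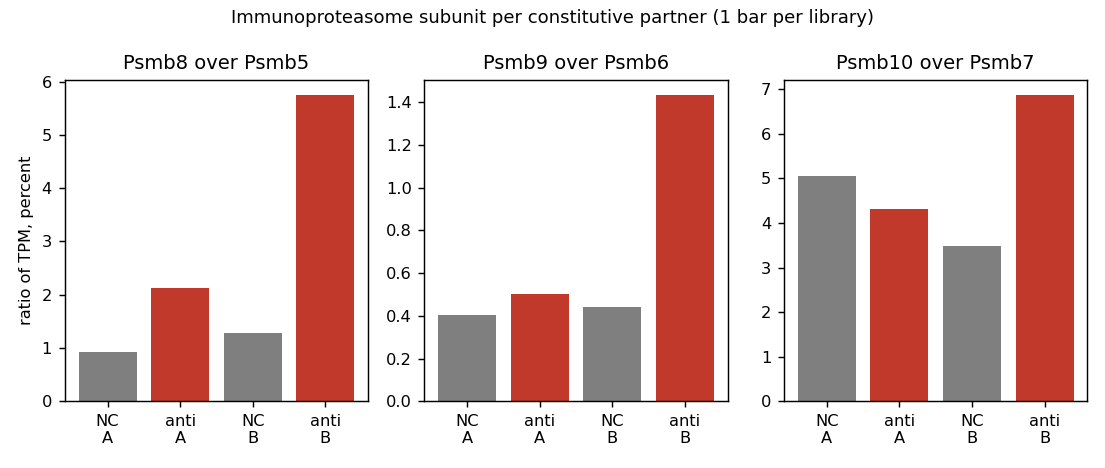
TPM of each immunoproteasome subunit as a percentage of the TPM of its constitutive partner, 1 bar for each library, with grey for NC and red for anti-miR-124. The anti-B library has the highest ratio in all 3 panels, and the anti-A library exceeds both NC libraries for Psmb8 and Psmb9 but not for Psmb10.

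Of the 10 genes, 7 lie on chromosome 17 between Tapbp and H2-D1 (chr17:33919478-35267497), with Psmb9, Tap1, Psmb8 and Tap2 next to each other. The other tested genes of this interval were 67 in number, with a median log2 ratio of -0.03 in pair A and 0.16 in pair B. Of these, 19 (28.4%) were higher in both pairs, against the 22.8% of all tested genes given above. An unadjusted p under 0.05 was found for 2 of them. The 6 tested members of the interval had medians of 0.17 and 1.31. B2m, Psmb10 and Nlrc5, which lie on other chromosomes, had log2 ratios in pair B between 0.84 and 2.35. The largest ratio among the other genes of the interval, chosen after its values were seen, was that of the complement gene C4b, at 4.30 in pair B and -1.52 in pair A.

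**Figure D4:**
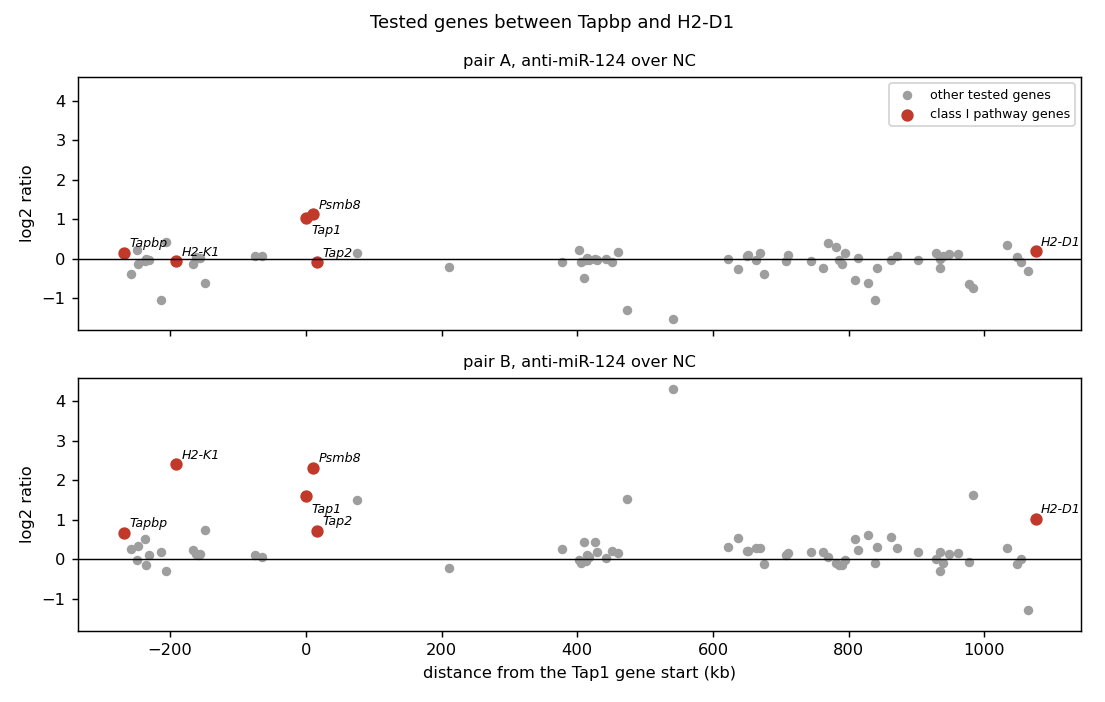
Log2 ratio of anti-miR-124 over NC (TMM-normalized CPM) for each tested gene between Tapbp and H2-D1, by distance from the start of Tap1 in kb, for pair A (above) and pair B (below). In pair B the 6 tested members (red) range from 0.67 to 2.41 while the 67 other genes (grey) have a median of 0.16.

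Like the members, the other genes of the pathway had no adjusted p-value under 0.05 in edgeR's test. Of 6 genes for peptide loading and trimming, 0 had an unadjusted p under 0.05, 2 were higher in both pairs (against 22.8% of all tested genes), and the median log2 fold change was 0.01. Their extremes were Erap1, the aminopeptidase that trims peptides in the endoplasmic reticulum, at 0.28 (standard error 0.14), and Pdia3, a thiol oxidoreductase of the loading complex, at -0.06 (0.08). Of 7 proteasome activators and assembly factors, 0 passed and the median was -0.05, with Psme2, a subunit of the interferon-inducible PA28 activator, at 0.17 (0.12) and Pomp, the proteasome maturation protein, at -0.08 (0.07).

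Among 12 transcription factors known to act on class I promoters, 0 passed, with a median of 0.004. The highest was Irf1, an interferon-induced activator, with 48 counts in NC-A, 59 in anti-A, 60 in NC-B and 109 in anti-B, and a fitted log2 difference of 0.55 (standard error 0.31, unadjusted p = 0.123, edgeR). The lowest was Rfx5, a subunit of the X-box binding complex, at -0.18 (0.08). Of 5 cytokines that induce class I genes, 0 were tested. Ifnb1, Ifna4 and Ifnl3 had no count in any library, Ifng had 1 count in the NC-A library, and Tnf had 1 count in anti-A and 3 in anti-B.

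For class II presentation, which displays peptides taken up from outside the cell, 4 of 8 genes were tested and 0 passed. Cd74, the invariant chain, had 17 counts in NC-A, 10 in anti-A, 5 in NC-B and 51 in anti-B. Ciita, the class II transactivator, was at a fitted log2 difference of -0.27 (standard error 0.45).

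Markers of microglia, the resident macrophages of the retina, moved with the class I genes in pair B. All 16 markers were higher in pair B, against 50.6% of all tested genes, and 5 were higher in pair A, against 48.2%, with median log2 ratios of 1.50 and -0.20. Their summed TPM was 253 in NC-A, 241 in anti-A, 199.7 in NC-B and 584 in anti-B. The ratio of these sums was 0.953 in pair A and 2.93 in pair B, against 1.27 and 2.56 for the 10 class I genes. Both ratios of pair A are raised by the lens transcripts in NC-A, which lower the TPM of its other genes. C1qb, which encodes a chain of the complement component C1q, had a log2 ratio of -0.13 in pair A and of 1.91 in pair B. In pair A, the log2 ratios of Psmb8 (1.12) and Tap1 (1.03) were above that of every microglia marker, the highest being 0.60. Those of the other members, B2m (0.40) among them, were not. The counting intervals of Psmb8 (0.14 to 2.18) and Tap1 (0.32 to 1.77) both include 0.60, so that this order is not beyond counting error. The part of microglia in the class I values of pair B was not tested.

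The 10 endothelial markers had median log2 ratios of -0.07 and -0.05 in pair A and pair B, and the 8 photoreceptor markers 0.02 and 0.04. Of 9 T and NK cell markers, 3 were tested, with median log2 ratios of 0.03 in pair A and 0.94 in pair B. These were Cd8a (0.03 and 0.53), Cd4 (0.17 and 0.94) and Ptprc (-0.18 and 1.99), which encodes CD45, a surface protein of all white blood cells and microglia. Cd3e, a defining chain of the T cell receptor complex, and Prf1 had no count in any library, and Cd8a had 63 counts in NC-A, 68 in anti-A, 65 in NC-B and 98 in anti-B. The 8 Muller glia and astrocyte markers had medians of -0.08 and 0.25, and the 8 inner retina markers 0.12 and -0.14. In pair B the Muller glia and astrocyte markers ran from -0.16 for Rlbp1 to 2.51 for Gfap, and Gfap was at -1.14 in pair A. Pigment epithelium markers (0.82 and 0.12 over 7 tested genes) and blood cell markers (1.87 and -0.68 over 5 tested genes) had higher medians in pair A than in pair B. The 15 tested lens markers had medians of -8.64 and 0.45, and the part of any of these cell types in the class I values was not tested.

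**Figure D5:**
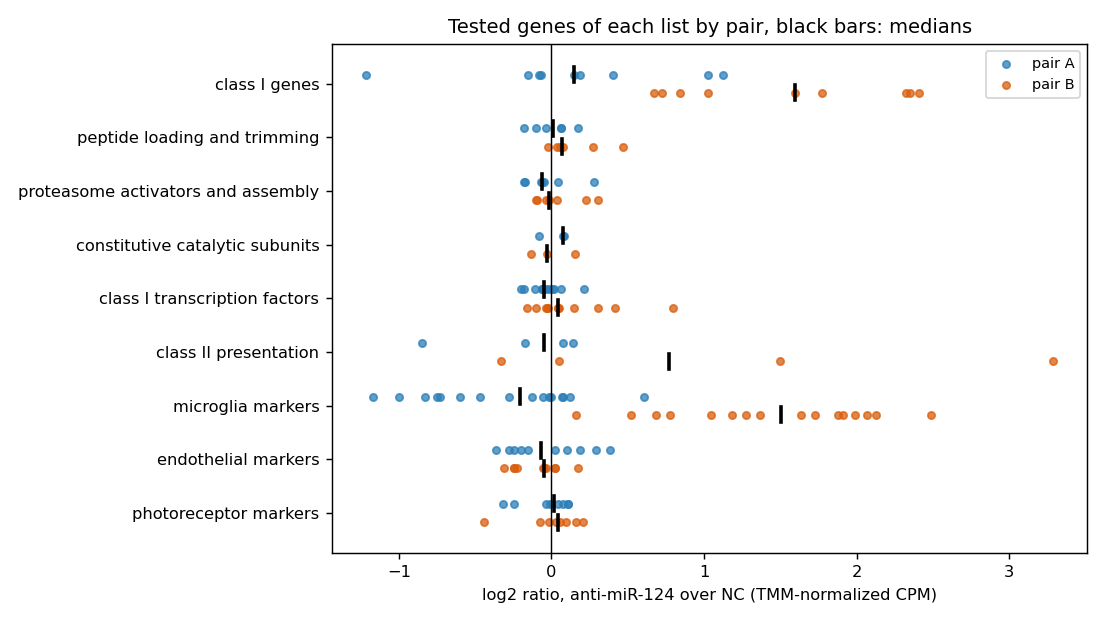
Log2 ratio of anti-miR-124 over NC (TMM-normalized CPM) of the tested genes of 9 lists, 1 point for each gene, pair A in blue and pair B in orange, with medians as black bars. The medians of pair B are 1.59 for the class I genes, 1.50 for microglia markers and 0.77 for class II presentation, and between -0.05 and 0.07 for the other lists shown. Muller glia and astrocyte markers, with a median of 0.25 in pair B, are among the lists not shown.

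The genes with a profile most like the mean of the 9 tested members over the 4 libraries were Serping1, Ctgf, Ucp2, Fcgr3 and Plek, by Euclidean distance of gene-centred log2 CPM among 12055 other genes with a mean of at least 100 counts. Their distances were 0.102 to 0.160, and as they were chosen for this profile their values are a description. Serping1 encodes the C1 inhibitor of the complement cascade and had 94 counts in NC-A, 104 in anti-A, 82 in NC-B and 261 in anti-B. Fcgr3 encodes a receptor for antibodies on myeloid cells and had 70 counts in NC-A, 72 in anti-A, 61 in NC-B and 197 in anti-B. In the same order of libraries, Ctgf had 225, 248, 211 and 653 counts, and Ucp2 had 237, 295, 215 and 652. Plek had 295, 335, 301 and 922.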

How the data were processed

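RNA-Seq was analysed in 4 mouse retina libraries, 2 for each group. The deposited table gives raw counts of reads for each gene, which the authors had not normalized, and gene lengths in bases. Its 4 columns of RPKM were not used. HISAT2 and mm9 are named in the submitters' processing notes without a version, and the counting tool is not given in the sources used here. Of 36837 symbols with a RefSeq position on GRCm38, 99.8% overlapped it, so positions were read as GRCm38. Whether counting used strand is also not given.

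Columns were mapped to groups by the eye they name. Which pair is replicate 1 is not told. TPM values were computed from counts and lengths. Genes were compared by quasi-likelihood in edgeR 4.0.16 (R 4.3.3), with TMM, filterByExpr, no covariate, two-sided, p-values adjusted by Benjamini-Hochberg, threshold 0.05, checked on simulated data. Ratio intervals are exact binomial 95% intervals on counts with TMM-scaled library sizes, for counting error only. The members and gene lists were chosen with earlier results of these data known, and the promoter motifs after the values were seen. Named genes were the members, the extremes of each pathway list, the 2 most abundant markers of each cell type list (given where a result turns on them, and 1 of them is not reported here) and the 5 most similar profiles. DESeq2 1.42.0, other scalings, filters, designs and leaving out each library were alternatives.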

Additional observations from a re-analysis of the deposited data

How the results depend on the processing

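With edgeR's main settings, 0 genes and 0 members had an adjusted p-value under 0.05, and with 3 other scalings, without lens genes, with a mean of at least 10 counts and with the replicate number as a block both counts were also 0. With the replicate block, 5 members were higher with an unadjusted p under 0.05, against 1.28% of all tested genes, and the median log2 fold change was 0.62. The block rests on numbers shared by the columns, which the sources do not tie to the same mice. Measured from the group means, NC-A and anti-A deviated with a correlation of -0.16 over 17766 genes, so that the numbers were not taken to pair the samples in the test. With a crossed block, an alternative added after seeing the data, 160 genes and 3 members had an adjusted p under 0.05. The 3 were higher, against 0.653% of all tested genes that passed and were higher. In both crossed pairs 8 of the 9 tested members were higher, against 5 in the numbered pairs and 27.3% of all tested genes in the crossed pairs. Without a filter on low counts, 379 genes and 6 members passed. The 6 were higher, against 0.788% of all genes tested there that passed and were higher. DESeq2's Wald test called 34 genes. The cause was not tested. By TPM, which the lens transcripts lower in NC-A, 7 of the 9 were higher in both pairs. H2-K1 and Tap2 were so by log2 ratios of only 0.04 and 0.02 in pair A. The share of all tested genes by TPM was not computed, so that this count has no background beside it. Leaving out 1 library each, with the lone library of a group taken to vary like the other group, gave 0 to 256 called genes, 0 to 6 called members, 1 to 10 members with an unadjusted p under 0.05, 5 to 10 members without overlap between the groups, a median log2 fold change of the members from 0.21 to 1.47, and a median change of the immunoproteasome ratio from 0.26 to 1.76, against 1.01 with all libraries. The highest of these came without anti-A and the lowest of the medians without anti-B. The share of all tested genes that were higher with an unadjusted p under 0.05 was also larger without anti-A than in the main test. The rise to 10 members there is therefore not a rise of the members alone. Without NC-A, 9 of 10 members were higher without overlap between the groups, against 31.7% of all genes tested there, and without anti-A 10 of 10, against 36.8%. Without NC-B the count was 6 of 10, against 31.5%, and without anti-B 5 of 9, against 33.9%. Without the anti-B library, the log2 fold change was -0.14 for Tap2, which reached 0.78 without anti-A. For Nlrc5 it was -0.57 without anti-B and reached 1.70 without NC-A. Of 117 values of single members under the alternatives, 2 changed sign and 15 came to pass the threshold. Higher in both pairs could not be counted with a library left out, and the counts without a test do not change with the block. At this depth Psmb9, with 5 to 20 counts, did not pass the filter of the main test. It was tested in some alternatives, such as the fit without a filter, which kept all 10 members.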
